A study of Mus musculus with 15 samples.

Results

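The 10 genes described here are Myc, which encodes a transcription factor of growth and proliferation, and 9 genes whose products build ribosomes in the nucleolus: Ncl, Npm1, Fbl, Nop56, Nop58, Dkc1, Polr1a, Polr1b and Nolc1. They were taken from the expression table by gene name, 10 of 38315 rows, each name with 1 row. All 10 passed the filter on low values (a normalized count of at least 10 in at least 4 libraries), as did 18941 genes in all. The samples were bone marrow from mice. AML (acute myeloid leukaemia) marrow, 7 libraries, came from transgenic animals of the genotype NUP98-NSD1/FLT3-ITD, which joins the nucleoporin gene NUP98 to the histone methyltransferase gene NSD1 and adds an internal tandem duplication of the receptor tyrosine kinase FLT3. Normal marrow came from wild-type mice, as whole marrow (4 libraries) or as lineage-negative marrow (4 libraries), which has been depleted of cells carrying surface antigens of mature blood lineages. The promoters that drive the transgenes, the antigens used for depletion, and the age and sex of the mice are not given in the sources used here. The labels do not say whether each library is a separate animal, so the p-values measure the spread between these libraries.

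Myc binds DNA as a dimer with Max, most tightly at the E-box CACGTG, and its target genes include a large part of the machinery of ribosome production. RNA polymerase I, whose largest subunits are encoded by Polr1a and Polr1b, transcribes the ribosomal RNA precursor in the nucleolus. Small nucleolar ribonucleoproteins then modify that precursor: fibrillarin (Fbl), Nop56 and Nop58 belong to the box C/D particles that methylate ribose, and dyskerin (Dkc1) is the pseudouridine synthase of the box H/ACA particles. Nolc1 is a nucleolar phosphoprotein that associates with both kinds of particle. Nucleolin (Ncl) and nucleophosmin (Npm1) are abundant nucleolar proteins that take part in transcription, processing and assembly, and NPM1 is among the genes mutated in human AML. In normal marrow, haematopoietic progenitors that grow and divide make many ribosomes, and production falls as granulocytes and red cells mature.

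Depth, estimated from the step between low values, was 11.4 to 17.2 M reads (M, mega) for the whole marrow libraries, below the 20.3 to 35.1 of AML and the 20.3 to 28.1 of lineage-negative marrow. The lowest value of any of the 10 genes, 264 for Fbl in whole marrow replicate 1, was far above the level of 3 reads, which was at most 5.75 in any library. Whole marrow had 7.12% to 15.7% of genes listed at 0. Among AML libraries, replicates 6 and 5 had the fewest, 23.6% and 29.1%, and the other 5 had 38.2% to 41.4%. Lineage-negative libraries had 35.7% to 41.0%. The mean deposited value of olfactory and vomeronasal receptor genes, sensory genes used here as a measure of background, moved with these shares. It was 7.13 to 13.5 in whole marrow and 0.38 to 0.50 in lineage-negative marrow, and in AML it was 0.46 to 3.81, with replicate 6 the highest and replicate 5 (1.33) the next. The part of this background in the differences below was not tested beyond the subtraction given in the closing section. That subtraction took the same value from every gene of a library, whatever its length, so it cannot measure that part gene by gene. The libraries were rescaled by the trimmed mean of M values (TMM), which brought the median log2 difference of all genes between AML and whole marrow from 0.67 to −0.01. The values below are TMM-rescaled normalized counts, and a difference is one of means of log2(value + 1). A difference is called higher or lower at an adjusted p under 0.05 in limma, with Benjamini-Hochberg adjustment over all genes tested. Erythroid markers (8 genes, globins among them) had sums of 1719570 to 2488710 in whole marrow. AML had 332 to 29328, and lineage-negative libraries had 2882 to 42463. For mature neutrophil markers (10 genes) the sums were 881680 to 1433090 in whole marrow. They overlapped those of AML, 377006 to 1198320, and fell to between 858 and 15794 after depletion of lineage-positive cells. Sums of progenitor markers (8 genes) were highest in lineage-negative marrow (26947 to 32008), and those of AML (10694 to 15193) lay just above those of whole marrow (10145 to 10630). Flt3 added 802 to 4099.5 to the sums of AML and 328 to 409 to those of whole marrow. The AML genotype carries an internal tandem duplication of FLT3, and its part in the Flt3 values was not tested. Spi1 was a large part of the sums of AML (3995 to 6406) and of whole marrow (2881 to 3930). It was the 1 listed marker lower in lineage-negative than in whole marrow (1126 to 1781), so these sums do not place AML by progenitor content. Against whole marrow the single markers were mixed in AML: 2 were higher (Flt3 by 2.63 and Spi1 by 0.51 on the log2 scale), 3 were lower (Gata2 at −2.32, Hlf at −0.87 and Myb at −0.84), and 3 were not called. These 5 markers are named because their list is mixed, after their values were seen. Of all genes, 16.9% were called higher and 20.9% lower in AML than in whole marrow. Against lineage-negative marrow, 6 of the 8 markers were lower in AML and 1 higher, beside 25.5% and 26.1% of all genes. Bulk values cannot tell apart fewer cells of a type and less RNA per cell, and the part of cell composition in the differences below was not tested.

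Each of the 10 genes was highest in lineage-negative marrow, and for 9 of them the AML libraries overlapped those of whole marrow. Against lineage-negative marrow, all 10 were lower in AML, where 25.5% of all genes tested were called lower and 26.1% higher. The fall ranged from 2.02-fold for Polr1a to 5.27-fold for Myc. In all 10 genes every AML library lay below every lineage-negative library. The shares of all genes that separated in this way, or that overlapped between AML and whole marrow, were not counted. Neither count can therefore be read as particular to the 10 genes. Against whole marrow, 1 gene (Fbl) was called higher in AML and none lower, where 16.9% of all genes were called higher and 20.9% lower. The median difference of the 10 genes was 0.07 on the log2 scale, with 5 differences above 0 and 5 below. Between the normal groups, all 10 were higher in lineage-negative than in whole marrow, from 1.79-fold for Polr1a to 7.04-fold for Myc, where 24.9% of all genes were called higher and 31.5% lower. The 3 comparisons share their libraries, so they are not independent of each other.

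**Figure D1:**
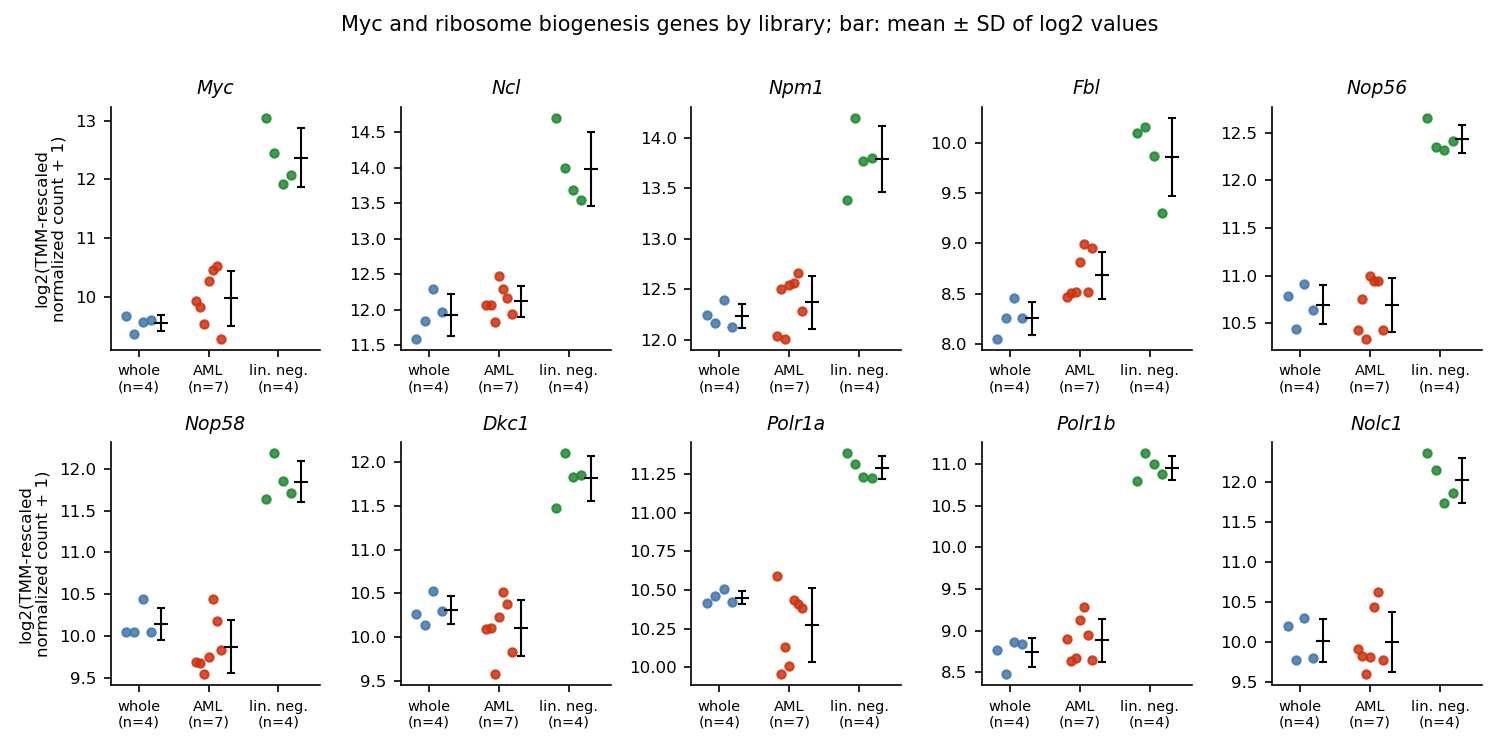
Level of each of the 10 genes in each library, as log2(TMM-rescaled normalized count + 1), by group: whole marrow (blue, n = 4), AML (red, n = 7) and lineage-negative marrow (green, n = 4); bars are the mean ± SD of the log2 values, and vertical axes differ between genes. In every panel the 4 lineage-negative libraries lie above all AML and whole marrow libraries, and outside the Fbl panel the AML and whole marrow points overlap.

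Myc was measured at 818, 657, 764 and 778 in whole marrow replicates 1 to 4. Lineage-negative marrow had 8440.5, 5592, 3869.8 and 4309.7 in replicates 1 to 4. AML ranged from 624 in replicate 7 to 1466 in replicate 6, with a median of 972. The lowest lineage-negative library was above the highest AML library, while AML replicates 3 and 7 fell within or below the range of whole marrow. The difference between AML (1049 ± 326, SD, n = 7) and lineage-negative marrow (5553 ± 2059, SD, n = 4) was −2.40 (SE 0.23) on the log2 scale, with an adjusted p of 2.02e-07. Against whole marrow (754 ± 69.0, SD, n = 4) the difference was 0.42 (SE 0.23), with an adjusted p of 0.173 and a 95% confidence interval from −0.08 to 0.91. An interval of this width does not show the levels to be alike. Lineage-negative marrow exceeded whole marrow by 2.82 (SE 0.26), with an adjusted p of 2.07e-07.

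How AML stands against whole marrow depends on the scaling. With the scaling as deposited, which places the median of all genes 0.67 higher in AML, 8 of the 10 genes passed as higher (all but Nop58 and Dkc1), and 51.5% of all genes passed as higher against 12% lower. The median of the 10 genes was then 0.77, close to that shift, and Myc was at 1.11 with an adjusted p of 0.000829. In the other 26 alternatives of scaling, filter, model and library set, Myc did not pass against whole marrow. By contrast, all 10 genes passed in the same direction under all 27 alternatives in both comparisons with lineage-negative marrow, with absolute log2 differences from 0.96 to 2.62 against AML and from 0.69 to 3.52 against whole marrow.

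**Figure D2:**
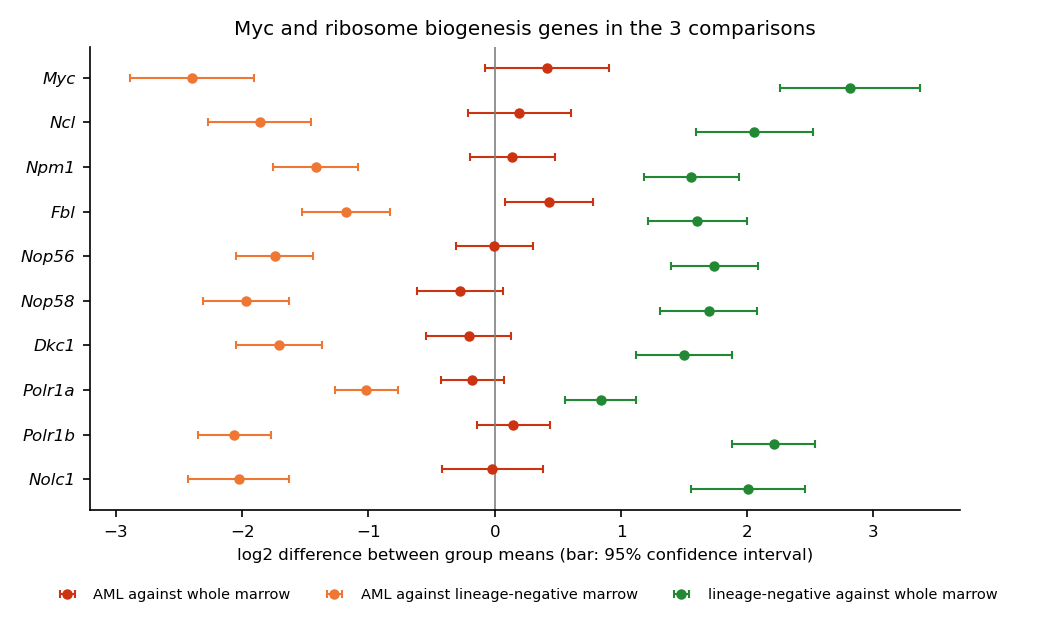
Difference between group means for each of the 10 genes on the log2 scale, in the 3 comparisons; points are the limma estimates and bars their 95% confidence intervals. AML against whole marrow (red) spans 0 for every gene but Fbl, AML against lineage-negative marrow (orange) runs from −2.40 to −1.02, and lineage-negative against whole marrow (green) from 0.84 to 2.82.

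The other transcription factors of the Myc and Max network moved in different directions. For comparison, 16.9% of all genes tested were called higher and 20.9% lower in AML than in whole marrow. Against lineage-negative marrow these shares were 26.1% and 25.5%, and between lineage-negative and whole marrow they were 24.9% and 31.5%. Of 11 listed genes, 3 were higher (Mycl, Mnt and Mlxip) and 2 lower (Mxd1 and Mxi1) in AML than in whole marrow. Against lineage-negative marrow, 7 were higher (Mycl, Max, Mxd1, Mxd3, Mxd4, Mxi1 and Mlx) and 2 lower (Mycn and Mga). Between the normal groups, 3 were higher in lineage-negative marrow (Mycn, Mnt and Mga) and 5 lower (Max, Mxd1, Mxd3, Mxi1 and Mlx). Of these 8 calls, those of Max (−0.21) and Mlx (0.060, a turn of sign) were lost with the scaling as deposited, and that of Mnt was lost in 15 of 27 alternatives, with values from 0.32 to 0.53 in those.

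Mycl encodes L-Myc, a relative of Myc that also pairs with Max. It was 125, 123, 79.0 and 109 in whole marrow and 104, 74.1, 69.4 and 98.0 in lineage-negative marrow. In AML it ranged from 100.2 in replicate 6 to 1005 in replicate 3, with a median of 449.9. AML replicate 6, the library with the most Myc, thus lay within the range of normal marrow, and the other 6 lay above it. Mycl was higher in AML by 1.87 (SE 0.46, adjusted p = 0.004) than in whole marrow and by 2.20 (SE 0.46, adjusted p = 0.000632) than in lineage-negative marrow. Mycn, which encodes N-Myc, was low in every group. Lineage-negative marrow had 164 ± 43.0 (SD, n = 4), AML 52.9 ± 28.8 (SD, n = 7) and whole marrow 42.9 ± 24.04 (SD, n = 4). Between AML and lineage-negative marrow it differed by −1.74 (SE 0.40, adjusted p = 0.0015).

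Mxd1 and Mxi1 encode repressors that compete with Myc for Max and accumulate as cells differentiate. Mxd1 had 9959.7, 13454, 12616 and 13959.7 in whole marrow and 1149, 532, 715 and 599 in lineage-negative marrow. In AML it ranged from 3585 to 12475, with a median of 4954. AML replicates 6 and 1 (11325) lay within the range of whole marrow, and the other 5 lay between the normal groups. The same 2 libraries had the highest sums of neutrophil markers among AML, 940921 and 1198320, against 377006 to 686162 in the other 5. The part of neutrophil content in Mxd1 was not tested. Mxd1 differed by −1.06 (SE 0.33, adjusted p = 0.0164) between AML and whole marrow and by 3.05 (SE 0.33, adjusted p = 5.91e-07) between AML and lineage-negative marrow. For Mxi1 the level in AML, 1016 ± 281 (SD, n = 7), lay between that of whole marrow, 2084 ± 106 (SD, n = 4), and that of lineage-negative marrow, 609 ± 55.9 (SD, n = 4). The corresponding differences were −1.08 (SE 0.17, adjusted p = 7.83e-05) and 0.70 (SE 0.17, adjusted p = 0.00205). With the scaling as deposited neither passed against whole marrow, with −0.36 (adjusted p = 0.372) for Mxd1 and −0.38 (adjusted p = 0.138) for Mxi1.

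Max itself was lowest in lineage-negative marrow, with 1328 ± 195 (SD, n = 4). AML had 1967 ± 409 (SD, n = 7), and whole marrow had 2499 ± 297 (SD, n = 4). It was higher in AML than in lineage-negative marrow by 0.55 (SE 0.15, adjusted p = 0.00476), a call lost without lineage-negative replicate 4 (0.41, adjusted p = 0.0511). Mxd3, another Max-binding repressor, was higher in AML than in lineage-negative marrow by 1.38 (SE 0.23, adjusted p = 8.6e-05). Mga, a large Max partner, was lower in AML than in lineage-negative marrow, at −0.73 (SE 0.13, adjusted p = 0.000164). Mnt and Mlxip, which encode a Max-binding repressor and a partner of Mlx, were at 0.60 each against whole marrow (adjusted p = 0.0222 and 0.0389). Both calls depended on single libraries: Mnt lost its call without whole marrow replicate 1, 2 or 3, and Mlxip without those or AML replicate 1, 2, 4 or 7, with log2 differences of 0.49 to 0.61. Mxd4 and Mlx were above lineage-negative marrow by 0.33 (adjusted p = 0.0458) and 0.53 (adjusted p = 0.0197), and lost that call in 17 and 5 of 27 alternatives. For Mlx these included leaving out lineage-negative replicate 1 (0.34) or 4 (0.44). For Mxd4 they included leaving out AML replicate 1, 3, 4, 5 or 7, whole marrow replicate 4 or any lineage-negative library, with values of 0.17 to 0.33.

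**Figure D3:**
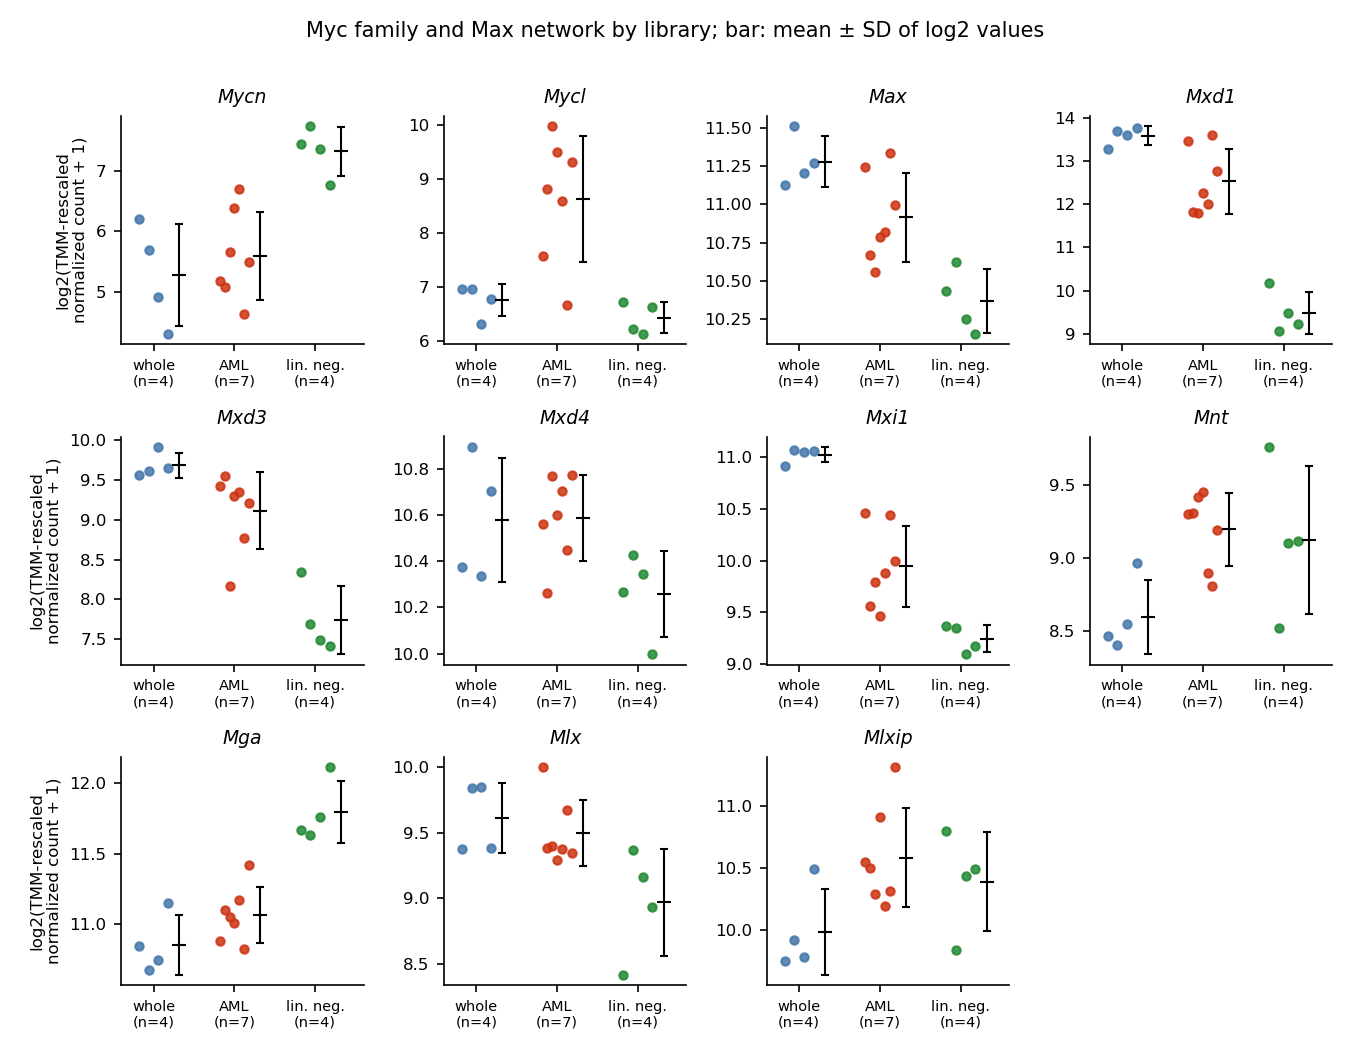
Level of the 11 other genes of the Myc family and Max network in each library, as log2(TMM-rescaled normalized count + 1), by group: whole marrow (blue, n = 4), AML (red, n = 7) and lineage-negative marrow (green, n = 4); bars are the mean ± SD of the log2 values, and vertical axes differ between genes. Mycl is above the normal libraries in 6 of 7 AML libraries, Mycn and Mga are highest in lineage-negative marrow, and Mxd1, Mxd3 and Mxi1 are lowest there.

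The promoters of genes that moved together can be read for the letters that Myc and Max bind. RefSeq promoters (GRCm38.p6) were matched by symbol for 7 of the 10 genes, and the 250 bases before the annotated start were searched on both strands. The members not matched were Myc, Npm1 and Fbl. The motif was the E-box CACGTG, with 4 related hexamers: CACGCG, then CATGCG, then CACGAG and then CATGTG. Of 32851 promoters in the table, 6.02% held CACGTG and 31.1% held any of the 5 motifs. None of the 7 held CACGTG, and 3 of 7 held another of the motifs. Nolc1 and Dkc1 are shown because they hold 2 matches each, and Ncl and Polr1b as examples that hold none. All 10 genes were lower in AML than in lineage-negative marrow, so their direction cannot set genes with a match apart from genes without. Letters run 5′ to 3′ on the strand of the gene, and capitals mark the matches.
Nolc1, chr19:46075597-46075846, plus strand: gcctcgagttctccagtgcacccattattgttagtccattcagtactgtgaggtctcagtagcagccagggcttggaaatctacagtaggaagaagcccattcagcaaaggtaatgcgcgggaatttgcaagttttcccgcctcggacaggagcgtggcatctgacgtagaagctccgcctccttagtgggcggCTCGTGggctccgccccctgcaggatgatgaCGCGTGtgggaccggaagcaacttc
Dkc1, chrX:75095604-75095853, plus strand: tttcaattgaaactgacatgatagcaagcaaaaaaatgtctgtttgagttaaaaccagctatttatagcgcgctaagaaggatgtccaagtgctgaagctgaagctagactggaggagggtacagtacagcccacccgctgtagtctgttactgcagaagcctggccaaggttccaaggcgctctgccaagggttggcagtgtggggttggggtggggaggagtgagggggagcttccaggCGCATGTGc
Ncl, chr1:86359456-86359705, minus strand: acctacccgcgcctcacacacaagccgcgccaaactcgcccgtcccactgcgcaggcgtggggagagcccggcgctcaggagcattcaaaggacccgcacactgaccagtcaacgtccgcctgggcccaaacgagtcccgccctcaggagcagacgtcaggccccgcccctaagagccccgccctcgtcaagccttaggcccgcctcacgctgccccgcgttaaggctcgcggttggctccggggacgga
Polr1b, chr2:129100746-129100995, plus strand: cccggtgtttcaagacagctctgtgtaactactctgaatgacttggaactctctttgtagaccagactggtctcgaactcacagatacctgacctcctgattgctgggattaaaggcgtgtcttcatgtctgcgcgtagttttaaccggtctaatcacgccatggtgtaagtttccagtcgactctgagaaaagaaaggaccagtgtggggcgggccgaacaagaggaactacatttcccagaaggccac
In Nolc1 the motif CACGCG, read on the other strand as CGCGTG, begins 25 bases before the start, and CACGAG, read as CTCGTG, begins 56 bases before it. In Dkc1 the motif CATGCG, read as CGCATG, begins 9 bases before the start and overlaps CATGTG, which begins 7 bases before it. Among 94 promoters of 78 other ribosome biogenesis genes, 6.38% held CACGTG and 35.1% held any of the 5. These are matches of letters in a short window, and no binding was measured.

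The RNA polymerase I subunit genes differed from each other in the size of their difference. Polr1b, whose promoter is shown above, had 435, 356, 466 and 456 in whole marrow and 1772, 2234, 2038 and 1877 in lineage-negative marrow. AML ranged from 395 to 624, with a median of 476, so AML overlapped whole marrow and lay well below lineage-negative marrow. The differences were −2.06 (SE 0.14, adjusted p = 2.96e-09) against lineage-negative marrow and 0.15 (SE 0.14, adjusted p = 0.426; 95% confidence interval −0.14 to 0.44) against whole marrow. Polr1a had 1368, 1409, 1454 and 1369 in whole marrow and 2674, 2552, 2409 and 2399 in lineage-negative marrow. AML ranged from 993 to 1544, with a median of 1332, wider than whole marrow on both sides. Its differences were −1.02 (SE 0.12, adjusted p = 1.46e-06) and −0.18 (SE 0.12, adjusted p = 0.253; 95% confidence interval −0.43 to 0.07). Polr1a thus changed least of the 10 genes in both comparisons with lineage-negative marrow, and whether its change differed from that of Polr1b was not tested.

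Fbl, the methyltransferase of the box C/D particle, was the gene called against whole marrow. It had 264, 304, 351 and 305 in whole marrow and 1099, 1140.2, 934 and 632 in lineage-negative marrow. AML ranged from 354 to 509.7, with a median of 365, and the lowest AML library (353.9) was only just above the highest whole marrow library (350.8). The difference was 0.43 (SE 0.16, adjusted p = 0.0495), higher in 7 of 7 AML libraries. This call is at the edge of the threshold: it held in 13 of 27 alternatives and was lost in 14, over which the difference ran from 0.31 to 1.12. Among them, it was lost without AML replicate 2, 4, 5 or 7, whole marrow replicate 1, 2 or 4, or lineage-negative replicate 3, at values from 0.36 to 0.46. Against lineage-negative marrow Fbl differed by −1.18 (SE 0.16, adjusted p = 1.21e-05).

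Nop56 and Nop58, the paired core proteins of the same particle, had differences of −1.74 (SE 0.15, adjusted p = 3.64e-08) and −1.97 (SE 0.16, adjusted p = 2.94e-08) between AML and lineage-negative marrow. Nop56 had 1769, 1384, 1929 and 1596 in whole marrow, 6449.6, 5242, 5099 and 5455 in lineage-negative marrow, and 1294 to 2046 in AML with a median of 1732. Of the 7 AML libraries, 3 lay above all whole marrow libraries, 3 below all of them and 1 among them, at a difference of −0.003 (adjusted p = 0.991; 95% confidence interval −0.31 to 0.31). Nop58 had 1064, 1062, 1389 and 1059.9 in whole marrow, 3175, 4646, 3708 and 3349.6 in lineage-negative marrow, and 749.5 to 1392 in AML with a median of 863. In 5 of 7 AML libraries it was below every whole marrow library, and replicates 5 (1392) and 6 (1158) were not. The difference was −0.27 (SE 0.16, adjusted p = 0.199; 95% confidence interval −0.61 to 0.07). Without AML replicates 5 and 6, the AML libraries with the fewest genes at 0, it was −0.45 (adjusted p = 0.0126). Those libraries also hold the highest values of Nop58 in AML, so leaving them out necessarily lowers its AML mean.

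Dkc1, mutated in human dyskeratosis congenita, had 1234, 1129, 1479 and 1263 in whole marrow and 2841, 4379, 3638 and 3702 in lineage-negative marrow. In AML it ranged from 765 to 1460.4, with a median of 1104, and overlapped whole marrow. The differences were −1.71 (SE 0.16, adjusted p = 1.36e-07) against lineage-negative marrow and −0.21 (SE 0.16, adjusted p = 0.33; 95% confidence interval −0.55 to 0.13) against whole marrow. Nolc1 had 1169, 875, 1255.5 and 886 in whole marrow and 5247, 4520.4, 3395 and 3703 in lineage-negative marrow. AML ranged from 773 to 1576, with a median of 904, and replicates 5 (1378) and 6 (1576) exceeded every whole marrow library. Its differences were −2.03 (SE 0.19, adjusted p = 1.29e-07) and −0.02 (SE 0.19, adjusted p = 0.951; 95% confidence interval −0.42 to 0.38). The promoters of Dkc1 and Nolc1 shown above hold the related hexamers, and that of Ncl holds none.

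Ncl was among the most variable of the 10 within normal marrow. It had 3085, 3669, 5014 and 4014 in whole marrow and 26591, 16403, 13118 and 11928 in lineage-negative marrow. AML ranged from 3626 to 5672, with a median of 4293, with 5 libraries within the range of whole marrow and 2 above it. The differences were −1.86 (SE 0.19, adjusted p = 4.57e-07) against lineage-negative marrow and 0.20 (SE 0.19, adjusted p = 0.457; 95% confidence interval −0.21 to 0.60) against whole marrow. Npm1 had 4849, 4584, 5394 and 4473 in whole marrow and 10729.9, 18787, 13987 and 14312 in lineage-negative marrow. AML ranged from 4123 to 6489, with a median of 5816, and overlapped whole marrow. Its differences were −1.42 (SE 0.16, adjusted p = 1.01e-06) and 0.14 (SE 0.16, adjusted p = 0.516; 95% confidence interval −0.20 to 0.48). Npm1 has processed pseudogenes, and introns of Ncl, Nop56, Nop58 and Dkc1 hold small nucleolar RNA genes, so reads of either kind may be assigned to or kept from these genes, depending on a counting method that is not given in the sources used here.

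Levels of different genes can be compared only per length. Per kilobase of annotated exon, Npm1 was highest in every group, at 1810.5 in whole marrow, 2018 in AML and 5424 in lineage-negative marrow. Myc was the fifth in whole marrow at 278 per kilobase, behind Nop56 (407), Ncl (387) and Dkc1 (309.8) as well as Npm1. In AML it was the fourth, at 386. In lineage-negative marrow it was the second, at 2044, above Ncl (1669.6) and Nop56 (1357). Polr1a, Fbl, Nop58 and Polr1b were the lowest 4 genes in each group, within 72.7 to 118 for whole marrow, 82.5 to 106 for AML and 211 to 346 for lineage-negative marrow. The length used is the union of all annotated exons, which was 10188 bases for Ncl and 10758 for Nop58. For Npm1 it was 2665 and for Myc 2717. These orders depend on that choice of length, are descriptions and were not tested.

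The 10 genes are a small sample of the pathway, so 91 other ribosome biogenesis genes, listed by role, were counted. Both the 10 and the 91 were chosen with earlier results of these data known. In lineage-negative marrow 86 of the 91 were higher than in whole marrow and none lower, with a median difference of 1.41. The share of all genes higher was 24.9%. In AML 83 of 91 (91.2%) were lower than in lineage-negative marrow and none higher, with a median of −1.13, against 25.5% of all genes lower. Against whole marrow, 27 of 91 (29.7%) were higher and 1 lower in AML, with a median of 0.22, against 16.9% of all genes higher. The last count was 15 without whole marrow replicate 1, 16 without whole marrow replicate 4 and 17 without AML replicates 5 and 6, and with the scaling as deposited it was 86. These lists and the 10 genes were not tested as sets.

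By role, 4 of 13 RNA polymerase I genes were higher in AML than in whole marrow and 1 lower, and 9 of 13 were lower than in lineage-negative marrow. Of all genes, 16.9% were higher and 20.9% lower than in whole marrow, and 26.1% higher and 25.5% lower than in lineage-negative marrow. The same shares are to be read beside the counts of the lists that follow. Polr1d, which encodes a subunit shared with RNA polymerase III, was higher in AML than in whole marrow by 0.59 (SE 0.15, adjusted p = 0.00427). Polr1h, another subunit gene, was higher by 0.62 (SE 0.18, adjusted p = 0.013), a call lost without whole marrow replicate 1 (0.43, adjusted p = 0.0687). The gene that was lower, Ubtf, encodes the upstream binding factor of ribosomal DNA, at −0.43 (SE 0.15, adjusted p = 0.0296). That call was lost without AML replicate 7 or whole marrow replicate 1, 3 or 4 (−0.43 to −0.37), and its sign turned with the scaling as deposited (0.27, adjusted p = 0.234). Compared with lineage-negative marrow, Polr1g (−1.25) and Polr1e (−1.13) differed most among the called genes, and Polr1f and Taf1d (−0.77 each) least.

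Of 13 further genes listed with the box C/D and H/ACA particles and their assembly, 3 were higher in AML than in whole marrow, and 11 were lower than in lineage-negative marrow. Tcof1, counted in this list though not a subunit of the particles, encodes treacle, a nucleolar phosphoprotein related to Nolc1. Its level was higher than in whole marrow by 0.80 (SE 0.19, adjusted p = 0.00311). Nufip1, which encodes a box C/D assembly factor, was higher by 0.64 (SE 0.11, adjusted p = 0.000226) than in whole marrow, and differed from lineage-negative marrow by −0.53 (SE 0.11, adjusted p = 0.000611). It thus lay between the normal groups, at 437 against 282 in whole and 631 in lineage-negative marrow. Compared with lineage-negative marrow, the biggest differences were in Gar1 (−1.85), a core protein of the H/ACA particle, and Ruvbl1 (−1.63), an ATPase of particle assembly.

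All 30 small subunit processing genes were lower in AML than in lineage-negative marrow, from −0.30 for Wdr3 to −1.92 for Nat10, which encodes a cytidine acetyltransferase of ribosomal RNA. Against whole marrow, 9 of 30 were higher and none lower, led by Nol6 at 0.80 (SE 0.16, adjusted p = 0.000646) and Imp3 at 0.67 (SE 0.18, adjusted p = 0.00859). Of 35 large subunit processing genes, 33 were lower in AML than in lineage-negative marrow, led by Gnl3 at −2.06, which encodes nucleostemin, and Wdr12 at −1.98, a member of the PeBoW complex. Against whole marrow 11 of 35 were higher and none lower, led by Mdn1 at 0.66 (SE 0.12, adjusted p = 0.00026), which encodes the giant ATPase midasin, and Nle1 at 0.65 (SE 0.17, adjusted p = 0.00577). Nol6, Imp3, Mdn1 and Nle1 kept these calls in all 27 alternatives.

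Among 24 Myc target genes outside ribosome production, 20 were lower and 1 higher in AML than in lineage-negative marrow. Srm, which encodes spermidine synthase, and Cad, which encodes the enzyme that starts pyrimidine synthesis, had the largest falls, both at −2.18. The gene that was higher, Mthfd2 (0.43, SE 0.16, adjusted p = 0.0354), lost its call in 7 of 27 alternatives, among them those without AML replicate 2 (0.41) or lineage-negative replicate 1 (0.40), 3 (0.32) or 4 (0.34). Against whole marrow, 2 of 24 (8.33%) were higher and 3 (12.5%) lower in AML, below the 16.9% and 20.9% of all genes. The 2 that were higher were Nme2, a nucleoside diphosphate kinase gene, by 1.28 (SE 0.16, adjusted p = 9.43e-06), and Ccnd2, which encodes cyclin D2, by 0.82 (SE 0.21, adjusted p = 0.00607). Odc1, the ornithine decarboxylase gene, was lower, at −2.44 (SE 0.15, adjusted p = 3.15e-09), and Tfrc, the transferrin receptor gene, at −2.29 (SE 0.23, adjusted p = 1.02e-06). Tfrc takes up iron and is strongly expressed in erythroid precursors, and the 8 erythroid markers fell by 8.71 at the median between whole marrow and AML. The part of erythroid cells in this change was not tested. Cell cycle markers (10 genes) were lower in AML than in whole marrow for 8 and than in lineage-negative marrow for 3, with none higher. Of all genes, 20.9% and 25.5% were lower, so the count of 3 of 10 is near the share of all genes.

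**Figure D4:**
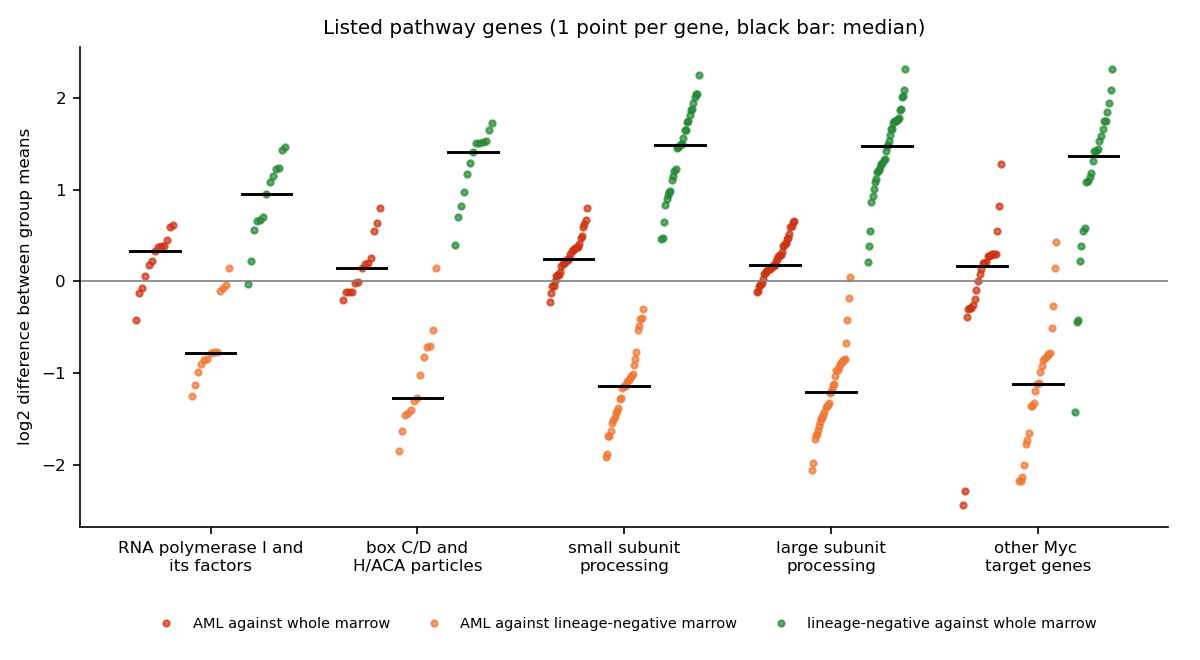
Difference between group means on the log2 scale for each listed gene outside the 10, by role (1 point per gene, sorted; black bars are medians), for AML against whole marrow (red), AML against lineage-negative marrow (orange) and lineage-negative against whole marrow (green). The orange points lie mostly below 0 and the green points mostly above it in all 5 lists, and the red points lie around 0 apart from Odc1 and Tfrc below −2 and Nme2 above 1.

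Within each group, some libraries were high or low for many of the 10 genes. In AML, replicate 3 was the lowest for 6 of the 10 genes, and replicates 5 and 6 were the highest for 4 and 3. AML replicate 3 also had the lowest sum of cell cycle markers, 30008 against 46391 to 64570 in the other 6. In whole marrow replicate 3 was the highest for 9 of 10 genes. In lineage-negative marrow replicate 1 was the highest for 5 genes (Myc, Ncl, Nop56, Polr1a and Nolc1) and the lowest for 4 (Npm1, Nop58, Dkc1 and Polr1b). That library had the highest sums of erythroid (42463) and neutrophil markers (15794) of its group, and the part of these in its values was not tested. The SD of log2 values over AML libraries ran from 0.22 for Ncl to 0.47 for Myc.

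Within AML, Myc was correlated with the other 9 genes over 7 libraries. All 9 Pearson coefficients were above 0, 5 passed an unadjusted exact permutation test over all pairings of the 7 libraries (two-sided), and none passed after adjustment over the 9 relations. The shares of all genes with such coefficients over the same libraries were not counted, so these counts cannot be read as particular to the 9 genes. Dkc1 had r = 0.901 (exact permutation p = 0.00635, adjusted p = 0.0571) and Spearman's rho of 0.893 (exact permutation p = 0.0123, adjusted p = 0.0768). Nop56 (0.859), Polr1b (0.831), Nolc1 (0.804) and Ncl (0.795) had exact permutation p of 0.0238 to 0.0321 and an adjusted p of 0.0579 each. Their rho were 0.679, 0.786, 0.857 and 0.821, with exact permutation p of 0.0238 to 0.1095 and adjusted p of 0.0768 to 0.164. Npm1 had r = 0.695 (rho 0.821) and Nop58 r = 0.682 (rho 0.607), with exact permutation p of 0.0939 and 0.0948 for r (adjusted p = 0.122 each). Polr1a (0.143, rho 0.357) and Fbl (0.0282, rho 0) varied with little relation to Myc, at adjusted exact permutation p of 0.842 and 0.945 for r. Without the 2 libraries farthest from the median of Myc, replicates 6 and 7, all 9 coefficients stayed above 0, from 0.250 to 0.945 over 5 libraries. For Fbl the coefficient rose to 0.889. It was below 0 when AML replicate 2 (−0.021), 3 (−0.12), 4 (−0.047) or 5 (−0.34) alone was left out. Replicates 5 and 6 are both the libraries with the most Myc and those with the fewest genes at 0, so library content and Myc level cannot be told apart in these relations.

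**Figure D5:**
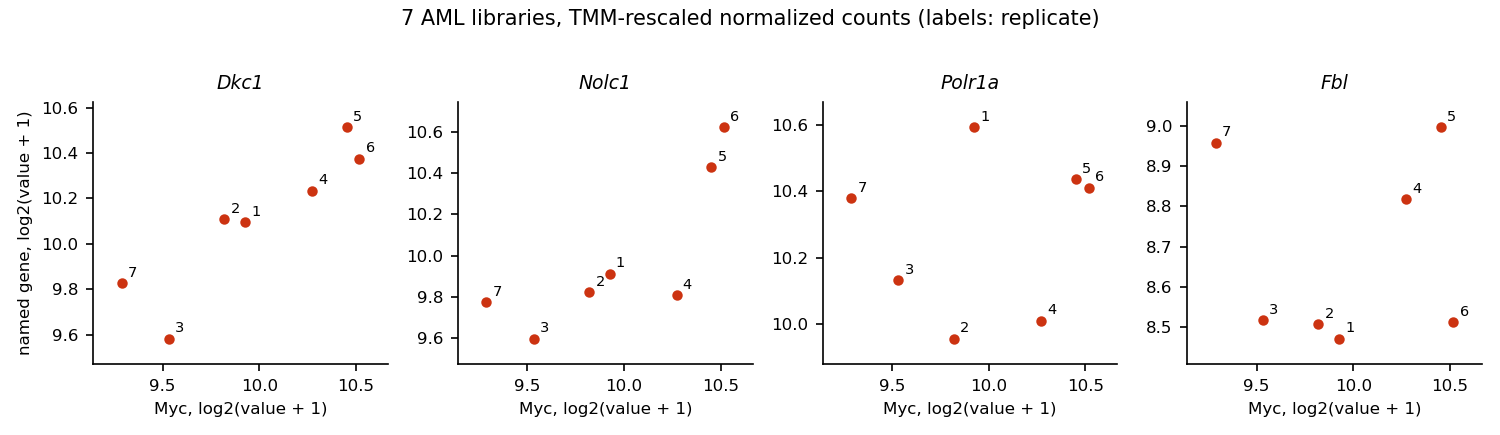
Level of Dkc1, Nolc1, Polr1a and Fbl against Myc in the 7 AML libraries, both axes as log2(TMM-rescaled normalized count + 1), with the replicate number beside each point. Dkc1 rises with Myc over the 7 points (r = 0.901), Nolc1 is high in replicates 5 and 6 (r = 0.804), and Polr1a and Fbl show no such line (r = 0.143 and 0.0282).

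The genes whose pattern was most like that of Myc over all 15 libraries, among 14148 protein-coding genes, were Ppan, Ddx21, Rbm28, Abcf2, Atad3a, Nomo1, Hspa9 and Lonp1, with Pearson's r from 0.983 to 0.987. Ppan, Ddx21 and Rbm28 are on the list of large subunit processing, and Hspa9 and Lonp1 encode a chaperone and a protease of mitochondria. Ppan, for example, had means of 750.7 in AML, 603 in whole marrow and 2453 in lineage-negative marrow. Those nearest to Ncl were Nomo1, Noc2l, Med24, Dync2i2, Eftud2, Cct7, Sympk and Lonp1, with r from 0.976 to 0.988. Nomo1 and Lonp1 are on both lists. These coefficients describe a likeness over all 3 groups together, and the genes share libraries and scaling. Whether it holds within a group was not tested.

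In the coordinates of the table, whose build its header does not name, Myc lies on chromosome 15 at 61857240 to 61862224, Ncl on chromosome 1 at 86272441 to 86287123, and Npm1 on chromosome 11 at 33102287 to 33113207. Polr1a lies on chromosome 6 at 71886037 to 71961920, and Dkc1 on chromosome X at 74139460 to 74153384. The starts of the 10 genes equal those of the GRCm38 annotation within 1 base in 0 of 10 cases, although the submitters' processing notes list mm10, so the promoter coordinates given above, which are on GRCm38.p6, are not to be set beside these.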

How the data were processed

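Total RNA of 15 mouse marrow samples was sequenced after TRIzol extraction and TruSeq Stranded Total RNA preparation, per the labels' protocols. The deposited values have the unit signal: counts per gene that the authors scaled between libraries with DESeq2's poscounts size factors, per the name of the deposited table. The submitters' processing notes list STAR, Partek, DESeq2 and mm10, with no versions or roles; the strand used for counting is not given in the sources used here. Between 82.0% and 87.2% of low values (under 20 reads) were whole multiples of a step, within 0.02, so whole reads were not recovered, no count model was used, and depths are estimates with counting error only. Groups came from the sample titles.

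Libraries were rescaled by TMM (trims of 0.3 and 0.05, written in R 4.3.3). Log2 values with a pseudocount of 1 entered 1 limma 3.58.1 fit of 3 group means (empirical Bayes with trend, two-sided, Benjamini-Hochberg over 18941 genes). In simulated data with 200 of 18941 genes changed, rescaling and fit recovered 77 of 100 changes of 1 on the log2 scale. Of changes of 2 they recovered 99 of 100, and 10 unchanged genes were called. Far more genes are called in the real libraries, so the simulation cannot vouch for the scaling between AML and whole marrow. Fold changes are on the log2(value + 1) scale. Lengths are exon unions of GENCODE M21. Correlations were computed in Python 3.11.15. Named genes were the 10, the Max network, for each other list and comparison with AML the 2 calls at either end of the range of differences (not all are printed), and the 8 genes nearest to Myc and to Ncl. Cell markers were used as lists. The members and lists were chosen with earlier results of these data known. The 27 alternatives covered scaling, pseudocount, filter, model, replicate block, subtraction of the mean olfactory receptor signal, and left-out libraries.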

Additional observations from a re-analysis of the deposited data

Results flagged for a closer look

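Nop58 in whole marrow replicate 3 stood apart from its group. Its TMM-rescaled normalized count was 1389, against 1059.9 to 1064 in the other 3 libraries, and the gap to the nearest of them was 0.987 of the range of the group. This was the only such case among 30 groups tested (10 genes in 3 groups), and chance alone gives about 1 in 20. The same library was the highest of whole marrow for 9 of the 10 genes.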

How the results depend on the processing

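The 10 genes kept their direction and call in both comparisons with lineage-negative marrow under all 27 alternatives. Calls between AML and whole marrow depended on the setting. The count of the 10 genes higher in AML (1 as reported) was 8 with the scaling as deposited and 0 with quantile scaling, a pseudocount of 0.1, a mean of at least 50, the replicate block, olfactory background subtracted, no AML replicates 5 and 6, or a log2 difference of at least 1. It ranged from 0 to 1 when leaving out 1 library. The count lower (0 as reported) was 1 with a mean of at least 50 (Polr1a, −0.30), the replicate block (Nop58, −0.48), olfactory background subtracted (Polr1a, −0.32) and without AML replicates 5 and 6 (Nop58, −0.45). Of the other ribosome biogenesis genes, the count higher in AML than in whole marrow (27 as reported) was 86 with the deposited scaling, 14 with a mean of at least 50, 17 with the replicate block, 13 with olfactory background subtracted, 17 without AML replicates 5 and 6, 0 at a log2 difference of at least 1, and 15 to 31 when leaving out 1 library. The count lower (1) was 0 with the deposited scaling, all genes with a non-zero value, the replicate block or a log2 difference of at least 1, and 0 to 1 when leaving out 1 library. Against lineage-negative marrow the count lower (83) was 54 at a log2 difference of at least 1, a rule with a fold minimum. The cause of the other changes was not tested. The count of genes correlated with Myc within AML (0) was 1 with the deposited scaling, Dkc1 (r = 0.891, adjusted exact permutation p = 0.0429).

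Signs turned only for small differences or with the deposited scaling, which moves the median of all genes by 0.67 between AML and whole marrow and by 0.59 between lineage-negative and whole marrow (then 44.3% of genes higher and 18.9% lower); quantile scaling moves the former to 0.12. With the deposited scaling AML exceeded whole marrow for Nop56 (0.69), Nop58 (0.42), Dkc1 (0.49), Polr1a (0.52), Nolc1 (0.68), Max (0.33), Mxd3 (0.12), Mlx (0.58) and Ubtf (0.27), and lineage-negative marrow exceeded whole marrow for Mycl (0.36), Mxd4 (0.38) and Mlx (0.060). Between AML and whole marrow, Mxd4 was at −0.036 with quantile scaling, −0.11 with a mean of at least 50, −0.029 with the replicate block and −0.13 with olfactory background subtracted. In the same comparison Npm1 was at −0.012 with that subtraction, and Nop56 and Nolc1 were at 0.090 and 0.074 with all genes with a non-zero value. When leaving out 1 library, AML against whole marrow ran from −0.089 to 0.070 for Nop56, −0.12 to 0.076 for Nolc1, −0.070 to 0.12 for Mxd4 and −0.016 to 0.62 for Mycn. AML against lineage-negative marrow ran from −0.20 to 0.28 for Mnt and −0.059 to 0.33 for Mlxip. The correlation of Fbl with Myc ran from −0.34 to 0.56.

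Replicate numbers are shared between groups, but deviations of same-numbered samples had correlations of −0.265 to 0.167, and 4 of 12 samples correlated best with their own number, so the replicate block given above rests on a number alone. Depth is an estimate and limits no value of the 10 genes, since all lie far above the level of 3 reads.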
